A study of Mus musculus with 31 samples.

Results

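Cortical cells grown from hybrid mouse embryonic stem cells (ESCs) for 12 days were compared with cortex of hybrid mouse embryos at stage E13.5, in mid-gestation. The comparison holds 10 of the 31 libraries of the series, chosen by the stage and the cross in their labels: 4 day 12 culture libraries, 2 each of the crosses BJ1 and JB6, and 6 E13.5 libraries, 3 of each cross. BJ1 mice and cells had a C57BL/6J (B6) mother and a JF1 father, and JB6 had a JF1 mother and a B6 father. The study asked how gene expression from the maternal and the paternal allele in cortex made in culture compares with that in the embryo. RNA was read by stranded sequencing of polyadenylated RNA, and the deposited values count sequenced bases at positions where B6 and JF1 differ, assigned to the maternal or paternal allele of each gene. Here such a base is called a read base.

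The day 12 cells were male. Their ESCs were derived from hybrid blastocysts whose B6 parent carried an Oct4-GFP transgene, and were kept with a GSK3β inhibitor, LIF and BMP4. They were plated on matrigel and moved to a defined medium with B27 lacking vitamin A, with cyclopamine added from day 2 to day 10. The E13.5 tissue, labelled DT and called cortex in the series text, came from 1 male embryo sample (BJ1 replicate 1) and 5 female ones, with no treatment named. Neither the number of ESC lines per cross nor whether replicates were separate cultures or embryos is given, so p-values measure only the spread between these libraries, which may be technical, and cross and ESC line cannot be told apart in culture. Because sex and stage go together, autosomal genes alone were used.

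In the embryo, the dorsal telencephalon is set apart by transcription factors such as Emx1 and Lhx2, and its radial glia give rise to intermediate progenitors and then to glutamatergic projection neurons. Hedgehog signalling from ventral sources pushes the telencephalon to ventral fates, and cyclopamine blocks its transducer Smo. Imprinted genes are expressed from only the maternal or only the paternal allele, often in a tissue-dependent way, because DNA methylation or histone marks set in the germ line differ between the parental copies.

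Depth was 5266834 to 8618253 read bases in day 12 libraries and 5634544 to 7187354 in E13.5 libraries. Mitochondrial genes took 10.8% to 15.1% at day 12 and 17.1% to 20.3% at E13.5, and the 10 most abundant autosomal genes took 6.83% to 8.12% and 3.62% to 4.73% of autosomal read bases at those stages. The part of these differences in the results was not tested. The 2 JB6 day 12 libraries differed more from each other (chi-square per degree of freedom 27.7) than the other 7 same-group pairs (4.95 to 8.78). Levels are given as CPM, a gene's read bases scaled to a common autosomal total, and are not per gene length, so they are compared between libraries and not between genes. Day 12 values follow the order BJ1 replicates 1 and 2, then JB6 replicates 1 and 2, and E13.5 values are the lowest, median and highest of the 6 libraries.

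Most genes differed in level between culture and cortex. Of 10614 autosomal genes tested by edgeR's quasi-likelihood test with Benjamini-Hochberg adjustment, 80.5% passed an adjusted p of 0.05: 4309 (40.6%) were higher at day 12 and 4233 (39.9%) were lower, and 2662 (25.1%) and 2366 (22.3%) differed by at least 2-fold. The libraries did not overlap in 67.3% of genes: in 3648 (34.4%) all 4 day 12 libraries lay above all 6 E13.5 libraries, and in 3496 (32.9%) all lay below. The median log2 fold over all genes tested was 0.0031. With library size alone as scaling it was -0.25, and 42.2% rather than 52.9% of the genes past 2-fold were higher at day 12. Against so wide a background, a gene list is described below by how far its counts and its median stand from these shares. Genes were tested if their 2 stage means averaged at least 20 read bases, called the floor. A gene nearly silent in cortex was therefore tested only if high at day 12, and the reverse, so its direction was set in advance. For lists of such genes, counts and medians are descriptions only. In these bulk libraries, fewer cells of a type and less RNA per cell cannot be told apart.

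**Figure D1:**
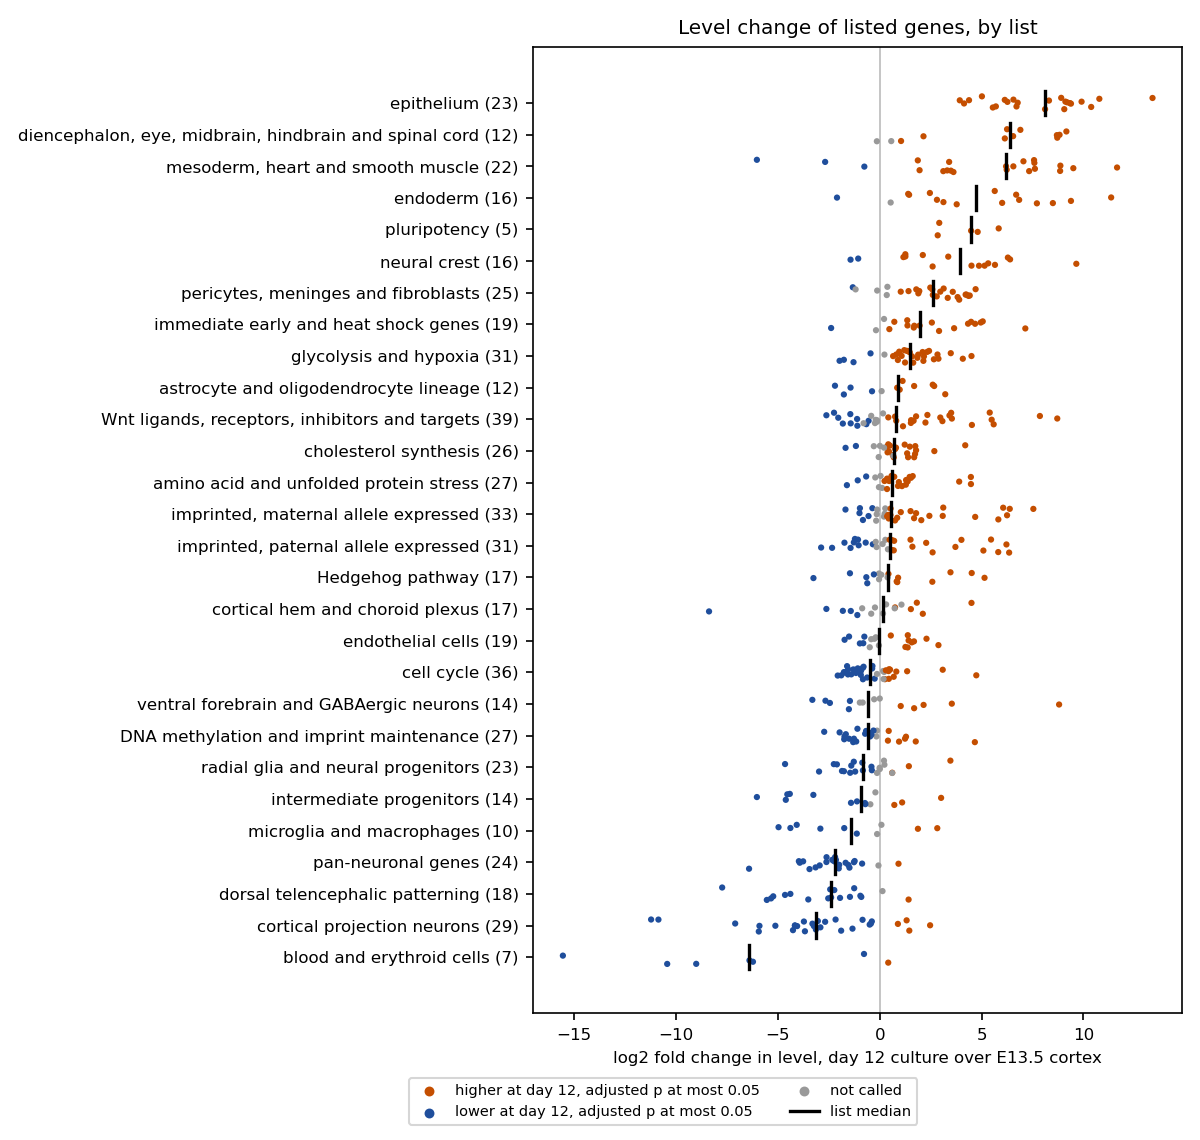
Log2 fold in level of day 12 culture over E13.5 cortex (horizontal axis) for every tested gene of each list (rows), with each list's median as a black bar. Epithelial, endodermal and mesodermal genes lie far to the right, with list medians of 8.12, 4.71 and 6.22, while projection neuron and dorsal telencephalic genes lie to the left, with medians of -3.13 and -2.41.

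The genes that mark dorsal telencephalon were mostly lower in the cultures. Of 18 tested, 16 were lower, 1 was higher and 1 passed in neither direction, with a median log2 fold of -2.41. Emx1, a dorsal patterning factor, stood at 1.55, 1.2, 1.01 and 1.5 CPM at day 12, against 51.4, 53.8 and 58.7 CPM. The groups were far apart, on 26 read bases in all at day 12, and the log2 fold was -5.33 ± 0.17 (SE; adjusted p = 1.13e-10). Lhx2, which holds cortical against hem fate, fell by 5.54 ± 0.21 on the log2 scale (adjusted p = 2.77e-10). Pax6, a dorsal progenitor factor, kept 5.96, 11.5, 4.46 and 13.3 CPM at day 12, against 85.4, 108 and 113 CPM. The exception was Nr2f2, a nuclear receptor of caudal and ventral telencephalon and of mesenchyme, at 50, 65.7, 47.2 and 43.2 CPM at day 12, against 9.38, 22.5 and 28.3 CPM (log2 fold 1.42 ± 0.26, adjusted p = 0.000246). The cells labelled cortical therefore held few read bases of Emx1, a marker that defines that tissue.

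Genes of neural progenitors in general had a list median closer to 0. Of 23 radial glia and progenitor genes, 14 were lower, 3 higher and 6 passed in neither direction (median log2 fold -0.82). Sox2, a general progenitor factor, overlapped between the groups, with 88.9, 99.1, 59.8 and 69.3 CPM at day 12 against 90.5, 103 and 113 CPM. Nes, an intermediate filament gene of neural progenitors, was separate, with 125, 141, 83.7 and 88.2 CPM at day 12 against 498, 513 and 523 CPM. Fabp7, a lipid carrier of radial glia, and Ptprz1, a receptor phosphatase of radial glia, fell by 2.98 ± 0.25 and 4.64 ± 0.28 on the log2 scale (adjusted p = 3.98e-07 and 2.1e-08). Dll3, a Notch ligand family member, and Tnc, an extracellular matrix gene also made by mesenchyme, were higher in every day 12 library, with log2 folds of 1.43 ± 0.19 and 3.47 ± 0.21 (adjusted p = 1.59e-05 and 1.57e-08).

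Genes of the step from progenitor to neuron were mostly lower. Among 14 intermediate progenitor genes, 9 were lower and 3 higher (median log2 fold -0.92). Eomes, the defining factor of these cells, had 2.59, 6.96, 1.22 and 3.9 CPM at day 12, against 191, 248 and 295 CPM (log2 fold -6.03 ± 0.25, adjusted p = 7.77e-10). Neurod1, which acts in the same cells, fell by 4.61 ± 0.26 (adjusted p = 6.14e-09). Btg2, a brake on progenitor division, and Tagln2, an actin-binding gene broadly expressed outside the brain, were higher, by log2 folds of 0.72 ± 0.10 and 3.01 ± 0.18.

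Of 29 projection neuron genes, 25 were lower and 4 higher, with a median log2 fold of -3.13. Tbr1, a factor of early deep-layer neurons, had 0.778, 3.12, 0.811 and 1.05 CPM at day 12, against 141, 196 and 252 CPM (log2 fold -7.09 ± 0.25, adjusted p = 1.88e-10). Neurod2, a glutamatergic differentiation factor, was at 0 in all 4 day 12 libraries, against 29.2, 48.3 and 61 CPM, and was at least 305-fold lower by a floor of 3 read bases over the group. Its relative Neurod6 had 1 read base at day 12 and 6035 at E13.5, a ratio of E13.5 to day 12 levels of 3703 with a 95% counting interval of 664.4 to 1.463e+05. Reln, secreted by Cajal-Retzius cells, fell by 4.26 ± 0.20 on the log2 scale (adjusted p = 1.63e-09). The 4 higher genes included Crym, a thyroid hormone binding protein, and Lmo4, a LIM-domain cofactor with many sites of expression, at log2 folds of 2.47 ± 0.22 and 1.45 ± 0.14.

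Genes of all neurons were lower in 22 of 24 cases and higher in 1 (median log2 fold -2.18). Tubb3, a neuronal tubulin, had 291, 353, 86.5 and 125 CPM at day 12, against 414, 586 and 662 CPM (log2 fold -1.54 ± 0.24, adjusted p = 8.46e-05). Both BJ1 cultures lay above both JB6 cultures, though the difference between the crosses in this fold did not pass (adjusted p = 0.063). Stmn2, a growth cone gene, fell by 1.67 ± 0.22, while the synaptic gene Snap25 and the AMPA receptor subunit Gria2 fell by 3.97 ± 0.20 and 6.41 ± 0.33 on the log2 scale (adjusted p = 1.73e-05, 2.52e-09 and 5.01e-09).

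**Figure D2:**
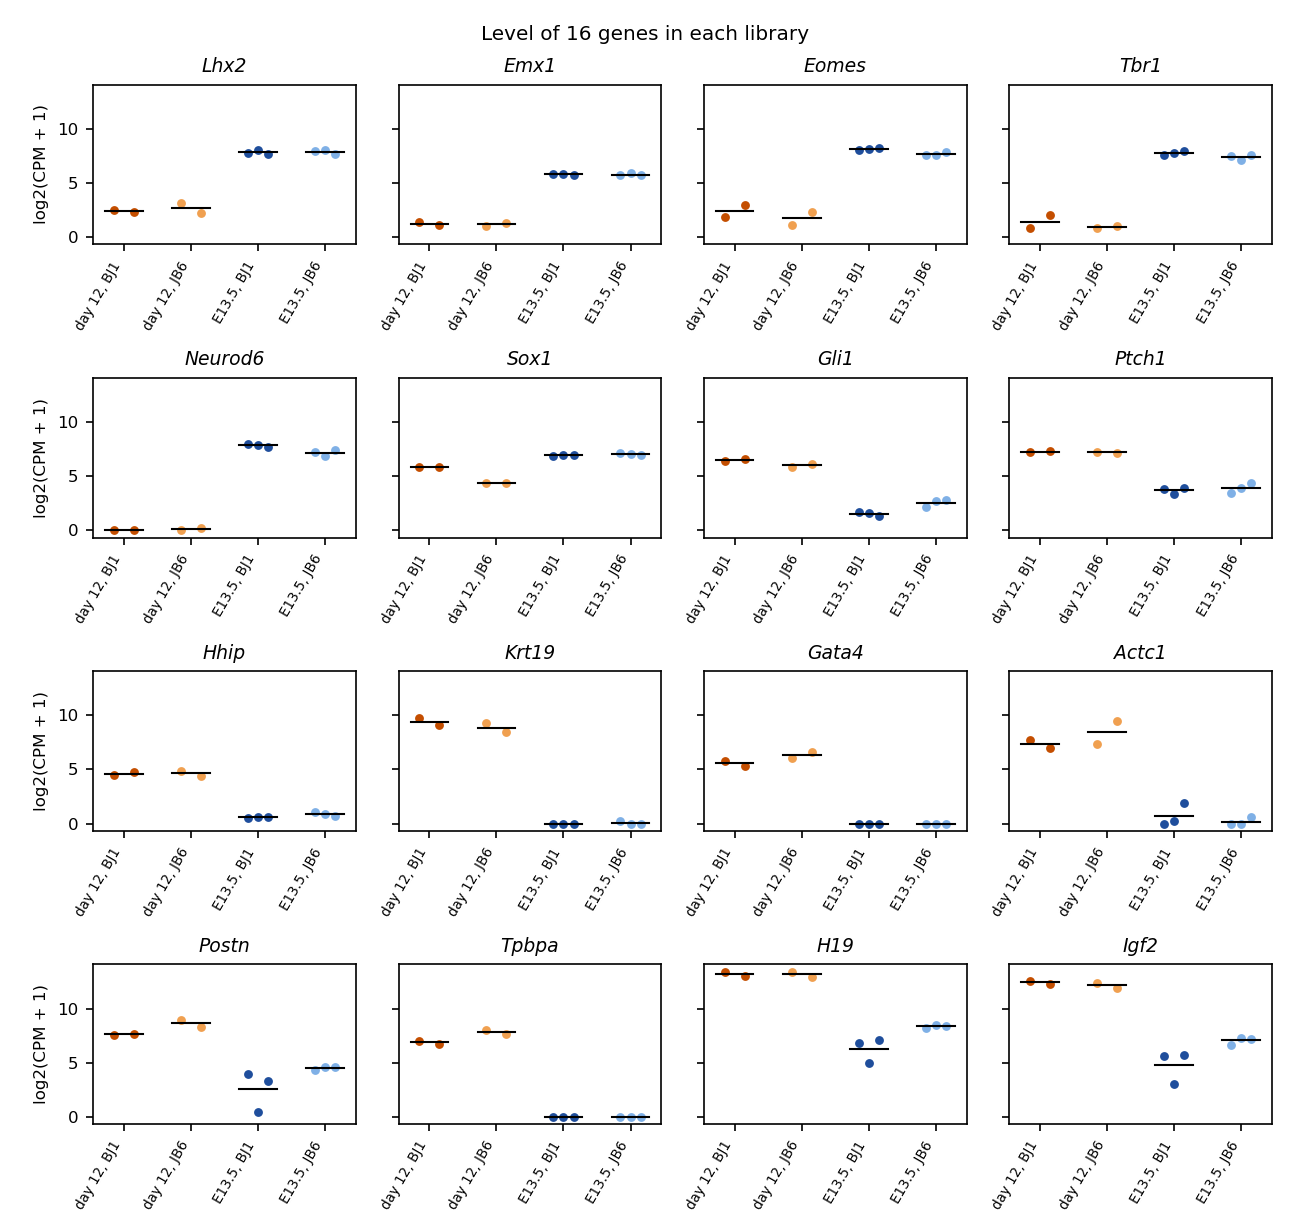
Level as log2(CPM + 1) on the vertical axis of 16 genes in each of the 4 day 12 and 6 E13.5 libraries, as 1 point per library with group means as black bars. Cortical factors such as Emx1, Eomes and Tbr1 sit far below cortex in the cultures, whereas Hedgehog targets, keratin 19 (Krt19), Gata4, H19 and Igf2 sit far above cortex.

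Other regional identities were tested next. Of 14 ventral forebrain and GABAergic genes that reached the floor of 20 read bases on average, 5 were lower and 5 higher (median log2 fold -0.55), and 12 listed genes were too low to test. Gad2, which makes GABA, had 5.96, 14.2, 2.43 and 9.9 CPM at day 12, against 17.9, 36.3 and 73.1 CPM (log2 fold -2.44 ± 0.51, adjusted p = 0.000942), but with male libraries alone the adjusted p was 0.1. Sox6, a factor of progenitors and interneurons, fell by 3.31 ± 0.14. Isl1, a factor of striatal, motor and non-neural cells, had 19.4, 17, 30 and 48.5 CPM at day 12, against 0, 0.584 and 15.7 CPM, and its log2 fold of 3.54 ± 0.77 (adjusted p = 0.00143) became 5.63 without JB6 E13.5 replicate 3. Nkx6-2, a ventral neural tube factor, was at 0 in all E13.5 libraries and at least 115-fold higher at day 12.

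Genes of diencephalon, eye, midbrain, hindbrain and spinal cord were mostly too low to test, with 27 of 39 under the floor. Of the 12 tested, 10 were higher and none lower, with a median log2 fold of 6.40. Since cortex held little of this list, its genes reached the floor mainly by being high at day 12. Their shared direction was thus largely set in advance. Wnt1, the midbrain and roof plate ligand, had 83.5, 73.2, 21.5 and 24.3 CPM at day 12, against 3 read bases in all 6 E13.5 libraries, a ratio of 486.2 (95% counting interval 165.8 to 2362). Its fitted log2 fold of 8.72 was 9.82 without JB6 E13.5 replicate 3. Other members that were higher are also used outside the brain: Gata2 and Gata3 act in blood and epithelia, and Hoxb2 and Hoxb3 in trunk tissues. The genes of this list summed to between 241 and 403 CPM in the cultures and between 19.6 and 35.8 CPM in cortex.

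Of 17 Hedgehog pathway genes tested, 8 were higher and 5 lower (median log2 fold 0.39, or 0.13 with library size alone), shares near those of all genes. Among the higher members were known direct targets of the pathway, sampled 2 days after the end of cyclopamine. Gli1, a transcription factor made in response to the pathway, had 85.8, 94.5, 56.9 and 70.8 CPM at day 12, against 1.49, 2.81 and 5.88 CPM, with no overlap (log2 fold 4.52 ± 0.31, adjusted p = 4.41e-08). Ptch1, the receptor that Hedgehog ligands inhibit, had 146, 158, 149 and 144 CPM at day 12, against 9.56, 13.6 and 19.2 CPM (log2 fold 3.47 ± 0.16, adjusted p = 1.26e-09). Hhip, a decoy that binds the ligands, was higher by 5.14 ± 0.25. Among transducers, Smo was higher by 0.86 ± 0.12 and Sufu by 0.43 ± 0.15, while Gli2 overlapped between the groups (-0.03 ± 0.14, adjusted p = 0.838). The co-receptors Cdon and Boc fell by 3.25 ± 0.16 and 0.66 ± 0.12 and Gli3, the main repressor of the pathway in dorsal telencephalon, fell by 1.46 ± 0.11. The part of the cyclopamine treatment in these levels was not tested, since every culture received it.

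The promoter windows of Ptch1 and Hhip are shown because these targets were higher in every culture. Both come from RefSeq (GRCm38.p6) and span 250 bases before to 50 bases after the annotated start, on the minus strand, at chr13:63565686-63565985 and chr8:80057959-80058258.
Ptch1: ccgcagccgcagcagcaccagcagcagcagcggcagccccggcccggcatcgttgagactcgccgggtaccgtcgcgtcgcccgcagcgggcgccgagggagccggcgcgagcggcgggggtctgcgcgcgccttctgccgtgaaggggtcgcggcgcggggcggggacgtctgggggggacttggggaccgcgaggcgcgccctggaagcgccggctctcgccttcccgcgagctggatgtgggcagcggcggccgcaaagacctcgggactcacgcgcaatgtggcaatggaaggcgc
Hhip: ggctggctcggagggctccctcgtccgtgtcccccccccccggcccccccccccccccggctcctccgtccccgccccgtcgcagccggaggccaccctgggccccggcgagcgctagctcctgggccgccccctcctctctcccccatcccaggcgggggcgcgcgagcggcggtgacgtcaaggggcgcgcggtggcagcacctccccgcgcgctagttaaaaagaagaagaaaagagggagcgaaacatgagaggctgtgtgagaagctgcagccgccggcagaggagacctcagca
The consensus letters bound by GLI factors, gaccaccca or tgggtggtc on the other strand, were searched, and neither window holds them, so no base is in capitals. These letters occur in 83 of 32851 promoter windows of this length (0.253%), and a site outside a window or with other letters would not be found.

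Genes foreign to cortex made up the highest folds. All 23 epithelial genes tested were higher at day 12, with a median log2 fold of 8.12, and the list summed to between 4803 and 8101 CPM in cultures and between 15.6 and 66.4 CPM in cortex. With so little in cortex, such genes reached the floor mainly by being high at day 12, so their shared direction was largely set in advance. Krt8, a keratin of simple epithelia, had 2255, 1311, 2202 and 1296 CPM at day 12, against 0, 2.47 and 8.05 CPM (log2 fold 9.33 ± 0.48, adjusted p = 1.58e-08). Krt19, another such keratin, had 874, 534, 625 and 346 CPM at day 12 and 1 read base at E13.5. Epcam, an epithelial adhesion molecule, was higher by a log2 fold of 6.27 ± 0.16, and the membrane protease gene Prss8 had 2850 read bases at day 12 and 2 at E13.5.

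Of 16 endoderm genes 14 were higher and 1, Trf, was lower (median log2 fold 4.71), and of 22 mesoderm, heart and smooth muscle genes 19 were higher and 3 lower (6.22). Under the floor were 12 further endoderm genes and 4 further mesoderm genes. Members nearly silent in cortex could pass it only by being high at day 12, so their direction was set in advance. Gata4, a factor of endoderm and heart, had 55.2, 38.9, 65.9 and 96 CPM at day 12 and was at 0 in all E13.5 libraries, at least 682-fold higher. Actc1, the cardiac actin, had 207, 123, 158 and 733 CPM at day 12, against 0, 0.0885 and 2.79 CPM. Its log2 fold of 8.86 ± 0.75 (adjusted p = 9.52e-07) was 10.89 without BJ1 E13.5 replicate 3 and 8.01 without JB6 day 12 replicate 2, the culture in which Actc1, Acta2 (1739 CPM) and Myl7 (223 CPM) were highest. The lower members of the mesoderm list were Eomes, Mef2c and Kdr, which cortical or vascular cells of the embryo also express.

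Neural crest genes were higher in 14 of 16 cases and lower in 2 (median log2 fold 3.93), and 7 were under the floor. Twist1, a mesenchymal factor, stood at 213, 253, 257 and 244 CPM at day 12 against 0, 3.2 and 7.52 CPM. Of 25 genes of pericytes, meninges and fibroblasts 20 were higher and 1 lower (2.61). Their summed level ran between 6158 and 7483 CPM in the cultures and between 446 and 1761 CPM in cortex, where BJ1 replicate 2 was lowest for Col3a1 (4.25 CPM) and Postn (0.354 CPM). Col3a1, a fibrillar collagen, had 1611, 2204, 2124 and 2536 CPM at day 12, against 4.25, 188 and 591 CPM (log2 fold 3.59 ± 0.70, adjusted p = 0.000688). All 5 pluripotency genes tested were higher (4.49) and 15 were under the floor, which genes nearly silent in cortex could pass only by being high at day 12. The 5 were Sall4, Tfcp2l1, Esrrb, Dppa5a and Tbx3, of which Tbx3, also a factor of other embryonic tissues, had 32.1, 13.4, 33.6 and 12.4 CPM at day 12, against 0, 0.296 and 1.17 CPM. Its log2 fold of 5.84 ± 0.56 was 6.55 without BJ1 E13.5 replicate 1.

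Placental genes appeared among the highest folds outside the lists, and 23 genes of trophoblast were then looked up, chosen after these values were seen and with no test of the set. Tpbpa, a marker of spongiotrophoblast, had 125, 108, 253 and 203 CPM at day 12 and was at 0 in all 6 E13.5 libraries, at least 1840-fold higher. Tpbpb, the placental lactogen Prl3b1, Prl2a1 and the placental cathepsin Ctsj were likewise at 0 at E13.5, with 516, 566, 585 and 367 read bases at day 12. In each of these 5 genes, all on chromosome 13, both JB6 cultures lay above both BJ1 cultures. Other genes looked up did not have that order: Syna had 17.4, 9.12, 22.5 and 3.75 CPM at day 12, Phlda2 20, 8.64, 19.9 and 15.9 CPM, and Krt7 228, 151, 235 and 107 CPM. The share of all genes with that order was not counted. For the 5 genes, the test of the difference between crosses could not decide, since all their E13.5 values were 0. Of the 23 genes, 18 had values, and Tfap2c, which neural progenitors also make, had fewer read bases at day 12 (1074) than at E13.5 (3507). Of the others, Syna and Phlda2 had 241 and 317 read bases at day 12 and 2 each at E13.5, while Prl3d1 (6) and Prl7a2 (9) were near the floor at day 12 and at 0 at E13.5.

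Genes of blood were mostly lower at day 12, and those of vessels and macrophages were mixed. Of 7 blood genes tested 6 were lower and 1 higher (median log2 fold -6.39), and the list summed to between 139 and 222 CPM in cultures and between 1531 and 10038 CPM in cortex. The joined adult β-globin genes Hbb-b1/Hbb-b2, nearly identical copies counted together, were at 0 in all 4 day 12 libraries, against 387, 1186 and 1631 CPM. Hbb-y, the embryonic β-globin, had 2.07, 4.8, 12.4 and 11.1 CPM at day 12, against 888, 3669 and 7607 CPM. Of 10 microglia and macrophage genes 6 were lower and 2 higher (-1.43), with the defining genes Mrc1 and Cx3cr1 lower and Csf1r overlapping (0.08 ± 0.32, adjusted p = 0.817). Irf8, which other cells also express, was among the higher ones. Of 19 endothelial genes 9 were higher and 5 lower (-0.04), and at least 2-fold, 8 were higher and 2 lower. The list summed to between 1129 and 1409 CPM in cultures and between 394 and 912 CPM in cortex. Tek, Emcn, Pecam1 and Kdr were among the lower genes. Among the higher ones were Slc2a1, a glucose carrier, and Flt1, a VEGF receptor that trophoblast also makes.

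Glial and hem genes were split. Of 12 astrocyte and oligodendrocyte genes 7 were higher and 4 lower (median log2 fold 0.92). Slc1a2, a glutamate carrier of astrocytes and radial glia, fell by 2.19 ± 0.26 and Aldoc, a glycolytic enzyme of radial glia, by 1.76 ± 0.15. Apoe, a lipid carrier of glia and macrophages, and Pdgfra, a receptor of oligodendrocyte precursors and mesenchyme, were higher by 3.22 ± 0.27 and 2.68 ± 0.50. Of 17 cortical hem and choroid plexus genes 5 were higher and 5 lower (0.16, or -0.09 with library size alone). Wnt8b, a ligand of the medial pallium, had between 10.5 and 26.4 CPM at day 12, against 26.6, 66 and 103 CPM (log2 fold -1.81 ± 0.40, adjusted p = 0.00134), while Bmp7, a dorsal midline and mesenchymal ligand, was higher by 1.82 ± 0.36.

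Growth, metabolism and stress genes differed too. Of 36 cell cycle genes 21 were lower and 11 higher (median log2 fold -0.49). Mki67, present in all dividing cells, had 216, 337, 392 and 136 CPM at day 12, against 701, 920 and 1066 CPM (log2 fold -1.76 ± 0.26, adjusted p = 6.36e-05), whereas the inhibitor Cdkn1a had 646, 608, 478 and 507 CPM at day 12 against 9.91, 23.7 and 28.7 CPM (4.74 ± 0.23). Of 31 glycolysis and hypoxia genes 26 were higher and 4 lower (1.47). The glucose carrier Slc2a3 had 231, 264, 224 and 242 CPM at day 12, against 9.48, 10.2 and 12.8 CPM (4.50 ± 0.11), and Ldha, which makes lactate, was higher by 2.14 ± 0.12. Of 26 cholesterol synthesis genes 19 were higher and 2 lower (0.68), among them Mvd higher by 2.68 ± 0.10 and Idi1 lower by 1.17 ± 0.18.

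Stress lists leaned the same way. Of 27 amino acid and unfolded protein stress genes 20 were higher and 3 lower (median log2 fold 0.58), with the stress genes Trib3 and Atf3 higher by 4.48 ± 0.28 and 4.47 ± 0.30 and the serine synthesis gene Psat1 lower by 1.61 ± 0.13. Of 19 immediate early and heat shock genes 16 were higher and 1, Hsph1, lower (1.96). Fos had 73.6, 47.7, 79.2 and 37 CPM at day 12, against 0.777, 1.71 and 6.7 CPM (4.68 ± 0.41). Of 39 Wnt pathway genes 22 were higher and 10 lower (0.81): the inhibitor Dkk1 was higher by 5.59 ± 0.40 and the receptor Fzd3 lower by 2.24 ± 0.20, while the general Wnt targets Axin2 and Lef1 overlapped (adjusted p = 0.351 and 0.182). How RNA was handled in dish and dissection cannot be told apart from stage for such genes.

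Since DNA methylation carries imprints, its genes were read beside the imprinted ones. Of 27 genes of DNA methylation and imprint maintenance 18 were lower and 7 higher (median log2 fold -0.56). The maintenance methyltransferase Dnmt1 had 285, 248, 273 and 202 CPM at day 12, against 242, 276 and 324 CPM, and did not pass (-0.13 ± 0.12, adjusted p = 0.325). The de novo enzyme Dnmt3b was higher by 1.29 ± 0.15 (adjusted p = 2.73e-06), and Dnmt3a overlapped (adjusted p = 0.111). Zfp57, a zinc finger protein that holds imprints, had 60.1, 63.6, 61.8 and 90.3 CPM at day 12, against 123, 156 and 187 CPM (-1.15 ± 0.15, adjusted p = 1.34e-05). Its partner Trim28 was higher by 0.40 ± 0.10. The oxidase Tet1, the chromatin remodeller Hells and the Polycomb subunit Suz12 fell by 1.26 ± 0.20, 2.72 ± 0.26 and 1.97 ± 0.16.

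In level, imprinted genes on both lists were higher more often than lower. Of 33 genes known from the maternal allele 21 were higher and 6 lower (median log2 fold 0.53), and of 31 known from the paternal allele 16 were higher and 10 lower (0.49). The noncoding RNA H19 had 10670, 8503, 11000 and 7571 CPM at day 12, against 29.7, 211 and 363 CPM (5.82 ± 0.50, adjusted p = 1.02e-06). Its neighbour Igf2, a fetal growth factor, had 5901, 5030, 5231 and 3911 CPM at day 12, against 7.26, 74.5 and 159 CPM (6.22 ± 0.58, adjusted p = 2.26e-06). Both were lowest in BJ1 E13.5 replicate 2, the library lowest in Col3a1 and Postn. Among other growth regulators, Dlk1 was higher by 6.35 ± 0.40, the cell cycle inhibitor Cdkn1c by 3.09 ± 0.19, the Igf2 scavenger Igf2r by 2.44 ± 0.12 and the amino acid carrier Slc38a4 by 5.46 ± 0.26. Genes with brain functions were among the lower: the noncoding RNA Peg13 fell by 2.88 ± 0.21 and Inpp5f by 2.34 ± 0.15, and Plagl1 and Nnat were also lower. Snrpn, Ndn and Zdbf2 did not pass.

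Some genes had read bases at 1 stage alone. Of 15713 autosomal features, 861 had no read base at E13.5, and 77 of these averaged 20 or more per day 12 library. Another 862 had none at day 12, and 17 of these averaged 20 or more per E13.5 library. Beside Tpbpa, an abundant case at day 12 was Myl7, a myosin light chain of heart, at 38.6, 15.6, 37.3 and 223 CPM, most of it from JB6 replicate 2. At E13.5 alone were Hbb-b1/Hbb-b2, Neurod2 and the unannotated transcript 9630028B13Rik, at least 415-fold lower at day 12.

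Few genes passed the test of whether the day 12 to E13.5 fold differed between the crosses, which does not show that few genes differed. At an adjusted p of 0.05, 11 of 10614 genes (0.104%) passed, and 1830 had an unadjusted p under 0.05. The count moved with the libraries kept: without JB6 day 12 replicate 1 the count was 514, and without either BJ1 day 12 replicate it was 0. It was 4, 22, 3, 1 and 39 without BJ1 E13.5 replicate 1 or 2, JB6 E13.5 replicate 2 or 3, or JB6 day 12 replicate 2. Sox1, an early neural progenitor factor, had 56, 56.4, 19.2 and 19.6 CPM at day 12, the first pair from BJ1, against 115, 125 and 138 CPM at E13.5. H2-Ab1, an MHC class II gene, had 23.3 and 27.6 CPM in BJ1 cultures and 0.811 and 1.05 CPM in JB6 cultures, against a lowest, median and highest of 0, 0.393 and 1.11 CPM at E13.5.

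The maternal share, the percentage of a gene's read bases that carry the maternal allele, was compared next within each cross. A strain effect that is equal at both stages cancels in this comparison. Of 9211 genes with at least 20 read bases on average at each stage, the share was higher at day 12 in 372 (4.04%) and lower in 421 (4.57%) in BJ1, and higher in 498 (5.41%) and lower in 294 (3.19%) in JB6. The median size among called genes was 13.6 percentage points in BJ1 and 14.1 in JB6. Since 1 read can add several read bases, the counts are sensitive to how reads are weighted, and with all counts divided by 3 they were 100 and 121 in BJ1 and 208 and 113 in JB6.

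A change that follows the parent goes the same way in both crosses, and 1 that follows the strain goes opposite ways. In 359 genes (3.9%) both crosses passed in opposite directions, in 15 (0.163%) in the same direction, and 419 and 418 passed in BJ1 alone and in JB6 alone. By the test of the difference itself, the crosses differed in 1515 genes (16.4%), with more B6 allele at day 12 in 654 and more JF1 in 861. By the mean of both crosses, 79 genes (0.858%) were more maternal and 12 (0.13%) less maternal at day 12.

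**Figure D3:**
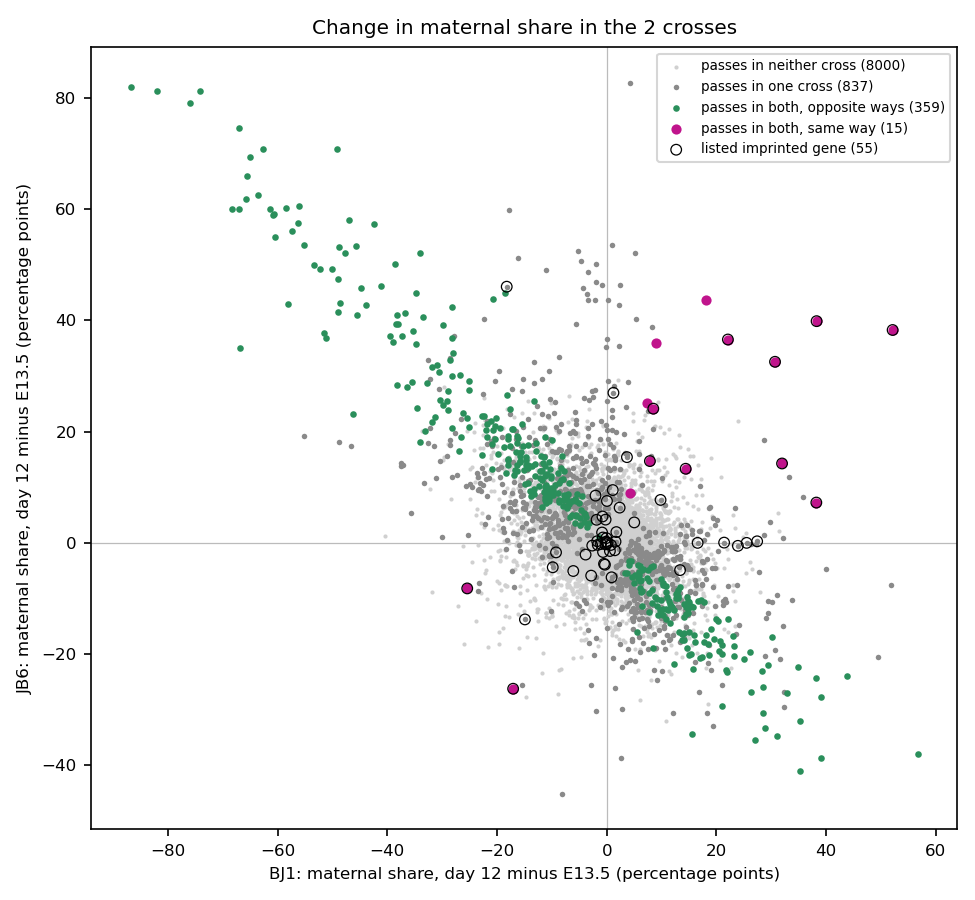
Change of the maternal share between the stages (day 12 minus E13.5, percentage points) in BJ1 on the horizontal axis and in JB6 on the vertical axis, with 1 point per gene and called genes coloured by pattern. Of the called genes, 419 passed in BJ1 alone and 418 in JB6 alone, 359 lie on the falling diagonal, where the crosses moved opposite ways, and 15 lie where both moved the same way.

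The 15 genes that moved the same way included 11 listed imprinted genes, and the other 4 lie together on chromosome 17. Of the 28 maternal-list genes tested, 3 were more maternal and 3 less in BJ1, 6 and 2 in JB6, and 18 passed no test. Igf2r, whose paternal copy is silenced through the antisense RNA Airn in most tissues but not in neurons, moved in both crosses. Its maternal share was 91.9% and 92.8% in BJ1 cultures, against 65.8%, 60.5% and 58.6% in BJ1 cortex, and 91.2% and 88.3% in JB6 cultures, against 58.7%, 56.7% and 56.2% in JB6 cortex. In both crosses the groups were apart, by a log2 maternal over paternal ratio of 2.92 ± 0.18 in BJ1 and 2.69 ± 0.16 in JB6 (adjusted p = 1.13e-17 and 4.95e-18). Klhdc10, near Mest on chromosome 6, had 67.4% ± 1.8 (SD, n = 2) in BJ1 cultures, against 53.0% ± 1.0 (n = 3) in BJ1 cortex, and 63.8% ± 0.25 in JB6 cultures, against 50.4% ± 3.0 in JB6 cortex.

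Blcap went the other way. This gene, the host of Nnat, is maternal in brain and biallelic elsewhere, and its maternal share was 60.9% and 60.4% in BJ1 cultures, against 78%, 76.3% and 78.8% in BJ1 cortex, and 51.2% and 51.9% in JB6 cultures, against 76.1%, 77% and 80.3% in JB6 cortex (adjusted p = 1.81e-07 and 6.3e-13). Ppp1r9a, a neuronal actin-binding gene imprinted in placenta, had 56.8% and 63.7% in BJ1 cultures, against 49.3%, 53.6% and 52.6% in BJ1 cortex, and 71% and 74.4% in JB6 cultures, against 47.2%, 47.1% and 51.5% in JB6 cortex. Its BJ1 call (adjusted p = 0.038) is lost without BJ1 day 12 replicate 2 (0.63) and without BJ1 E13.5 replicate 1 (0.11) or 3 (0.052). H19, Cdkn1c, Grb10 and Rian, strongly maternal at both stages, passed no test of share. H19, for instance, stood at 99.4% and 98.6% in BJ1 cultures and cortex, while its level differed by a log2 fold of 5.82.

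Of the 27 paternal-list genes tested, 13 were more maternal at day 12 in BJ1 and 8 in JB6, 2 were less maternal in each, and 9 passed no test. The 13 in BJ1 are not separate cases. They include Ndn, Magel2, Mkrn3, Peg12 and Snrpn of the Prader-Willi region, and the joined feature Snrpn+Snurf beside Snrpn itself. Genes with a maternal share under 10% in every library of a stage numbered 9 of 27 at day 12 and 16 of 27 at E13.5. On the maternal list, genes over 90% in every library numbered 5 of 28 at day 12 and 6 of 28 at E13.5. Over all genes the median change was -0.18 points in BJ1 and 0.13 in JB6, against 5.01 and 0.28 on the paternal list and -0.42 and -0.22 on the maternal list.

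Zdbf2, a growth regulator imprinted in embryo and brain, had maternal shares of 54.1% and 55.3% in BJ1 cultures, against 2.28%, 0% and 5.6% in BJ1 cortex, and of 40% and 37.2% in JB6 cultures, against 0%, 0.667% and 0.321% in JB6 cortex (adjusted p = 8.45e-13 and 1.83e-12), with no change in level. Slc38a4, imprinted without germ-line DNA methylation, had 50.2% and 48.4% in BJ1 cultures, against 14.6%, 0% and 18.6% in BJ1 cortex, and 47.2% and 49.8% in JB6 cultures, against 18.3%, 1.65% and 5.88% in JB6 cortex. It rested on 105 and 294 read bases in cortex, and limma on log2 ratios did not call it (adjusted p = 0.15 and 0.1). Inpp5f had 40.2% and 23.1% in BJ1 cultures, against 9.62%, 8.62% and 10.4% in BJ1 cortex, and 53.4% and 49.6% in JB6 cultures, against 14.9% ± 1.3 (SD, n = 3) in JB6 cortex.

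Igf2 kept a paternal majority in both settings. Its maternal share was 34.6% and 33.6% in BJ1 cultures, against 26.8%, 34.1% and 17.8% in BJ1 cortex, where the ranges overlap, and 19.8% and 21% in JB6 cultures, against 7.03%, 4.99% and 4.92% in JB6 cortex. The BJ1 call (adjusted p = 0.000314) is lost without BJ1 E13.5 replicate 3 (0.16), and the crosses differed (adjusted p = 8.29e-06).

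In the Prader-Willi region on chromosome 7, Ndn and Snrpn differed between the crosses. In BJ1, the maternal share of Ndn, a neuronal survival gene, was 19.6% and 23.2% in cultures, against 0% in all 3 cortex libraries (adjusted p = 7.01e-13), where 0 of 741 read bases allows a share of up to 0.405%, counting error alone considered. In JB6, it was 3.88% and 4.94% in cultures, against 9.38%, 2.5% and 1.21% in cortex, which overlap. Snrpn, the splicing gene at the control centre of the region, had 27% and 21.4% in BJ1 cultures, against 0.583%, 0% and 0.301% in BJ1 cortex, and 0.948% and 0% in JB6 cultures, against 2.12%, 0.444% and 0.466% in JB6 cortex. For Ndn and Snrpn the crosses differed in this change (adjusted p = 9.01e-07 and 7.63e-06). Magel2 had 17.6% and 33.3% in BJ1 cultures on 38 read bases, against 0% of 142 in BJ1 cortex (up to 2.11% allowed). In JB6 it had 0% of 47 in cultures (up to 6.38%) and 0% of 152 in cortex (up to 1.97%). Peg12 and Mkrn3 passed in both crosses. They stood at 38.2% and 32.6% in BJ1 cultures against 0% and 0.617% in BJ1 cortex, and at 7.25% and 15.4% in JB6 cultures against 0% and 1.08% in JB6 cortex. For Mkrn3 the difference between crosses did not pass (adjusted p = 0.422). For Peg12 that test could not decide, because neither cortex group had a maternal read base. For Peg12, a count of 0 allows up to 2.75% in BJ1 cortex and 2.38% in JB6 cortex. Their JB6 calls (adjusted p = 0.0191 and 0.0183) are lost without JB6 day 12 replicate 2 (0.23 and 0.35) and without JB6 E13.5 replicate 2 (0.11 and 0.1), and that of Peg12 also without JB6 E13.5 replicate 1 (0.052).

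Usp29, in the Peg3 domain, had the reverse pattern by cross, with 17% and 37% in JB6 cultures, against 0% in JB6 cortex (up to 1.61% allowed; adjusted p = 2.49e-06), and 0% and 4% in BJ1 cultures, against 0%, 0% and 2.35% in BJ1 cortex, but the difference between crosses did not pass (adjusted p = 0.092). Impact, a translation regulator, was more paternal at day 12, with 7.78% and 4.93% in BJ1 cultures, against 34.2%, 32.1% and 29.1% in BJ1 cortex, and 3.44% and 1.16% in JB6 cultures, against 9.49%, 14.6% and 7.43% in JB6 cortex. Peg3, Mest, Nnat, Plagl1 and Kcnq1ot1 passed no test of share. Plagl1, for instance, stood at 3.27% ± 0.23 in BJ1 cultures and 3.40% ± 1.5 in BJ1 cortex, and Peg3 at 0.463% ± 0.28 in JB6 cultures and 0.409% ± 0.41 in JB6 cortex (SD, n = 2 and 3).

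Several listed genes passed in 1 cross alone. Atp10a, a phospholipid flippase gene, was 69.8% and 71.7% maternal in JB6 cultures, against 24.3%, 22.2% and 27.5% in JB6 cortex (adjusted p = 2.08e-06), and 40.9% and 52.9% in BJ1 cultures, against 66%, 65.9% and 63.6% in BJ1 cortex (adjusted p = 0.264). In cortex the B6 allele was above 50% in both crosses, and the change between the stages differed between the crosses (adjusted p = 2.33e-05). Mirg, a microRNA host RNA of the Dlk1 domain, was 89.4% and 92.1% maternal in BJ1 cultures, against 100% in all BJ1 cortex libraries (adjusted p = 0.000269). The calls of Gnas, Asb4, Trappc9 and Ptk2 on the maternal list, and of Zrsr1, Peg13, Peg10, Sgce, Casd1 and Herc3 on the paternal list, are each lost on leaving out 1 library. For Gnas it is JB6 day 12 replicate 1 (adjusted p = 0.094), for Peg10 BJ1 E13.5 replicate 3 (0.41), and for Asb4 any of 8 libraries (0.052 to 0.25). Without the replicate 2 culture of the cross, the calls of Trappc9, Zrsr1, Peg13 and Casd1 in BJ1 (0.19, 0.2, 0.3 and 0.36) and of Ptk2 and Herc3 in JB6 (0.46 and 0.33) are lost. Leaving out 1 cortex library of the cross also ends them: replicate 1 for Casd1 (0.07), Ptk2 (0.14) and Sgce (0.12), replicate 2 for Zrsr1 (0.067), Peg13 (0.084), Casd1 (0.084) and Ptk2 (0.17), and replicate 3 for Trappc9 (0.077), Peg13 (0.06), Herc3 (0.09) and Sgce (0.23). The replicate 1 culture does so for Peg13 (0.16), Casd1 (0.052) and Sgce (0.093). Herc3, though on the paternal list, had a maternal majority in cortex, with 64.3% in BJ1 and 64.8% in JB6. In cultures its maternal share was 49.4% in BJ1 and 51.0% in JB6.

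Beyond the imprinted genes, many wide changes went opposite ways in the crosses, the direction of a strain difference, though Kifc1 on chromosome 17, at 100% and 98.7% in JB6 cultures against 19.1%, 14.3% and 16.2% in JB6 cortex, passed in JB6 alone. Clns1a, a chloride channel and splicing cofactor gene on chromosome 7, was read only from JF1 in the cultures: its maternal share was 0% in both BJ1 cultures, against 77.7%, 83.4% and 84.9% in BJ1 cortex, and 100% in both JB6 cultures, against 15.3%, 21.8% and 19.3% in JB6 cortex. With 0 B6 read bases in the cultures, B6 shares of up to 1.2% in BJ1 and 0.714% in JB6 are allowed. Uqcrc1, a respiratory chain subunit gene on chromosome 9, had the same pattern, with 0% and 100% in BJ1 and JB6 cultures, against 76% ± 2.7 and 20.8% ± 3.0 in BJ1 and JB6 cortex. In all, the B6 share was under 10% at day 12 and over 30% at E13.5 in both crosses in 36 genes, and the JF1 share in 4. Of the 36, 13 lie on chromosome 7, 8 on chromosome 8 and 4 on chromosome 9, and Sox6 is among them. Of all 9211 genes tested for share, those chromosomes hold 713, 309 and 496. The authors state that the B6 parent of the culture crosses carried traces of CBA and, rarely, DBA sequence, and that they removed affected positions from all samples. Its part in these shares was not tested. The opposite case was Zfp317, at 91.8% ± 0.056 in BJ1 cultures against 52.7% ± 1.9 in BJ1 cortex, and 4.61% ± 2.7 in JB6 cultures against 43.3% ± 6.7 in JB6 cortex.

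Chromosome 17 stood out in JB6, where 72 of its 430 genes tested passed (16.7%, against 8.6% over all autosomes), 61 of them more maternal. In gene order, the calls cluster between Cyp4f17 and Rpp21, a stretch of 80 genes chosen after these values were seen, which holds the MHC (H2) genes. There, 40 genes were more maternal and 2 less maternal in JB6, against 21 and 9 among the other 349 genes placed on the chromosome. In BJ1, 12 genes of the stretch passed in either direction, against 28 among the other 349 and 8.61% of genes over all autosomes. The median maternal share of the stretch was 64.2% in JB6 cultures and 49.6% in JB6 cortex, while in BJ1 it was 51.3% in cultures and 50.7% in cortex. Rps18, a ribosomal protein gene, had 100% and 99.8% in JB6 cultures, against 53.9%, 53.2% and 53.6% in JB6 cortex, and 45.7% and 45.4% in BJ1 cultures, against 46.4%, 46% and 46.9% in BJ1 cortex. Tubb5, a tubulin gene, stood at 96.2% in JB6 cultures and 46.0% in JB6 cortex.

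The 4 unlisted genes that moved the same way in both crosses, Stk19, Wdr46, Vars2 and Ddah2, all lie in this stretch. Wdr46, a nucleolar protein gene, had 46.2% and 48.6% in BJ1 cultures, against 39.2%, 35.9% and 40% in BJ1 cortex, and 91.3% and 91.8% in JB6 cultures, against 53.2%, 56% and 57.8% in JB6 cortex. Stk19 had 58.1% ± 6.1 and 100% ± 0 in BJ1 and JB6 cultures, against 40.1% ± 2.4 and 56.4% ± 0.95 in BJ1 and JB6 cortex (SD, n = 2 and 3). In BJ1 all 4 calls were near the threshold (adjusted p = 0.0126 to 0.0445) and each is lost on leaving out some single libraries, for Wdr46 BJ1 day 12 replicate 1 (0.06) or 2 (0.12) or BJ1 E13.5 replicate 2 (0.08), and for Stk19 BJ1 day 12 replicate 2 (0.2) or BJ1 E13.5 replicate 3 (0.052). The call of Vars2 is lost without BJ1 day 12 replicate 1 (0.21) or 2 (0.058) or BJ1 E13.5 replicate 2 (0.2), and that of Ddah2 without either BJ1 culture (0.17 each), BJ1 E13.5 replicate 1 (0.12) or 3 (0.14), or JB6 E13.5 replicate 3 (0.0504). For Stk19, Wdr46 and Vars2 the crosses differed in size (adjusted p = 3.46e-09, 1.85e-12 and 2.01e-05). These genes therefore share a position with the JB6 skew of the stretch, and how much of their change follows the parent was not tested apart from it.

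**Figure D4:**
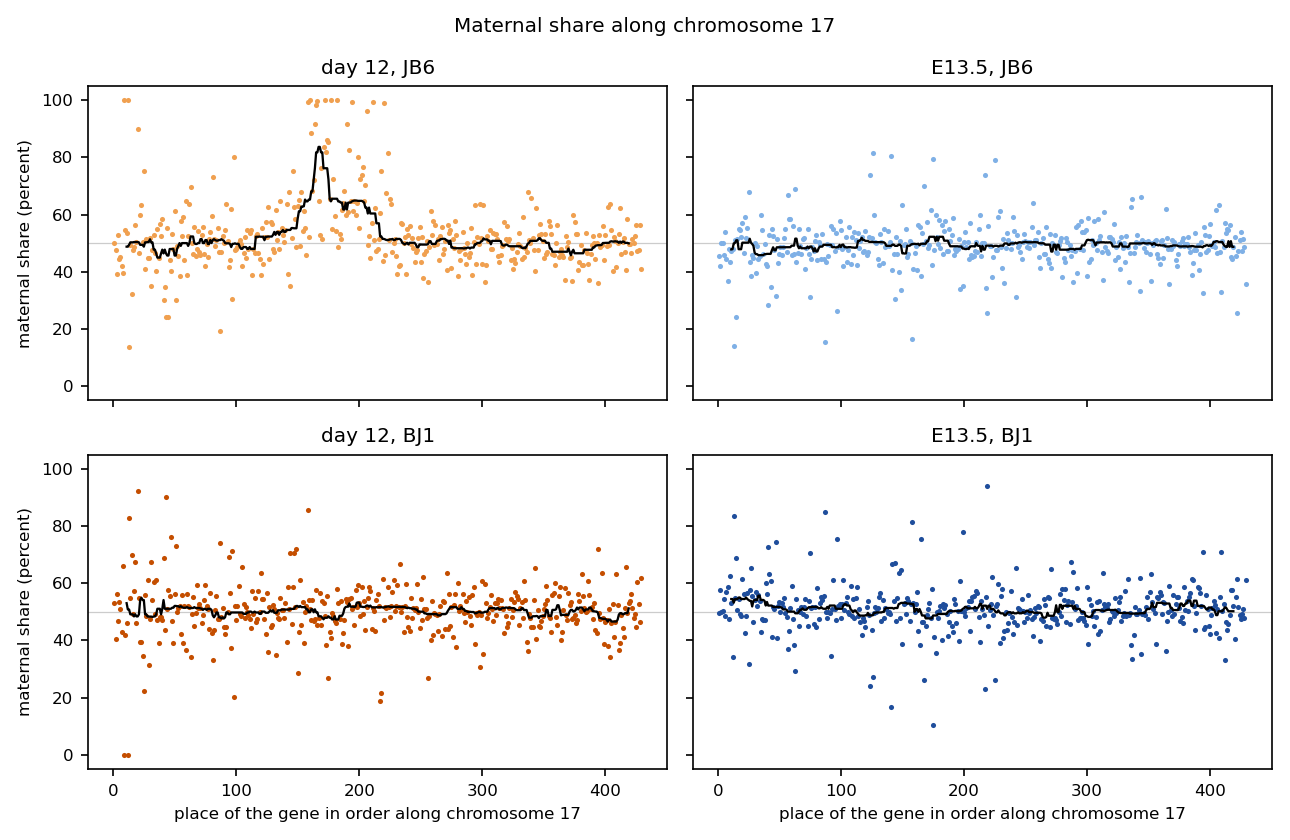
Maternal share (percent, vertical axis) of chromosome 17 genes in gene order (horizontal axis), with JB6 above BJ1 and day 12 culture left of E13.5 cortex, and the running median of 21 genes as a black line. In JB6 culture the line is highest over 1 stretch (median 64.2%), whose genes have medians of 49.6% in JB6 cortex, 51.3% in BJ1 culture and 50.7% in BJ1 cortex.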

How the data were processed

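Sequenced bases at B6 and JF1 differences were counted by the authors per gene and allele, and deposited as count tables of read bases on the gene's own strand, 1 table per stage. Per the submitters' processing notes and the deposited readme, base calling used CASAVA 1.8.2, alignment Novoalign to mm9, with HTSeq and SAMtools mpileup 0.1.18 also named, and positions touched by CBA or DBA sequence in the culture lines were removed from every table. One read can cover several differences, so a read base is not a molecule of its own, and the limits given reflect counting error alone.

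Both alleles were summed for the level, a gene absent from a table counting as 0, and autosomal genes whose 2 stage means averaged at least 20 read bases were tested with edgeR 4.0.16 (R 4.3.3, TMM, quasi-likelihood, cross as covariate, Benjamini-Hochberg adjustment, threshold 0.05). The share was tested in the same way on maternal and paternal counts within libraries, for genes averaging at least 20 in each stage. Alternatives were DESeq2 1.42.0, limma 3.58.1 on log2 ratios with a pseudocount of 0.5, library size only, counts divided by 3, no floor, a floor of 100, male libraries, a replicate block and leaving out each library. Counts were also simulated at the real depths, with an assumed spread equal for all genes and libraries. The rates that follow hold for that spread alone. The level test called 94 of 96 genes changed 2-fold and 11 of 10297 unchanged ones. The BJ1 share test called 29 of 100 changed 2-fold in ratio, 93 of 100 changed 4-fold and 7 of 9011 unchanged ones. Shares were changed in BJ1 only, and the JB6 test, run on the same simulated counts, called 0 genes. Tables used Python 3.11.15, pandas 2.3.3, numpy 2.4.6, scipy 1.17.1 and matplotlib 3.10.9. Gene order and promoters came from RefSeq GRCm38.p6, while the tables use mm9, so no coordinates were joined.

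The rule for named genes took, per list and direction, up to 2 genes past the threshold with the largest fold, no overlap of the groups and at least 100 read bases per library in the higher stage, up to 5 per direction outside the lists, up to 3 absent from each table, and the genes that define a cell type. For shares it took listed imprinted genes that pass and up to 5 others per cross and direction. Not every gene it took is described, and a few others appear as examples of a list, chosen after their values were seen. The trophoblast genes and the chromosome 17 stretch were chosen after their values were seen. The members and lists were chosen with earlier results of these data known. Some genes that the rule took are not reported here.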

Additional observations from a re-analysis of the deposited data

Results flagged for a closer look

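The change in level between day 12 culture and E13.5 cortex differed between the crosses, by the test of the difference itself, for 5 named genes. As BJ1 minus JB6 log2 fold, the difference was 8.11 for H2-Ab1, 3.45 for the kidney and meningeal factor Foxd1, 2.86 for Dlk1, 2.17 for the myogenic inhibitor Mdfi and 1.92 for Fam181b. For all 5 both BJ1 cultures lay above both JB6 cultures. The 5 were chosen as the largest positive differences among genes that passed, so that order was largely set by the choice. None of the 5 calls holds without BJ1 day 12 replicate 1.

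The change in maternal share differed between the crosses for 7 listed imprinted genes. As BJ1 minus JB6 difference of the log2 maternal over paternal ratio, it was 8.77 for Ndn, 7.69 for Snrpn, -0.92 for Ppp1r9a, -1.38 for Igf2, -3.91 for Atp10a, -4.57 for Mirg and -5.13 for Peg10. The call of Mirg (adjusted p = 0.035) is lost without any 1 of 6 libraries, BJ1 E13.5 replicates 1 to 3, JB6 E13.5 replicates 1 and 2 and BJ1 day 12 replicate 1 (0.059 to 0.113), and that of Peg10 without BJ1 E13.5 replicate 3 (0.111). Fitted ratios of groups with a count of 0 depend on the prior count and are no measure of size.

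The same test was passed by 13 unlisted genes away from the chromosome 17 stretch that were named for their change. The difference was 7.16 for Zfp317, 6.95 for Wdr31, 6.37 for Hells, 5.76 for Amz1, 5.67 for Zfp14, 3.98 for Serpinb9, 3.16 for Cav2 and 2.50 for Nfkbid. The call of Nfkbid (adjusted p = 0.046) is lost without any 1 of the 10 libraries except BJ1 E13.5 replicate 3 (0.0504 to 0.26), and that of Zfp14 without BJ1 day 12 replicate 2 (0.14). It was -10.16 for Papd5, -13.47 for Irak1bp1, -15.75 for Myo7a, -24.47 for Uqcrc1 and -25.26 for Clns1a, the last group being genes with few or no B6 read bases in the cultures. Hells, which is lower in level at day 12, was 100% and 97.1% maternal in BJ1 cultures, against 45%, 45.8% and 49.2% in BJ1 cortex, and passed no test in JB6. In the chromosome 17 stretch, the difference was -1.13 for Vars2, -2.58 for Wdr46, -8.31 for Stk19 and -8.48 for Kifc1.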

How the results depend on the processing

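No called value of a named gene changed sign under the alternatives run, but with library size only the all-gene median went to -0.25 and the hem and choroid plexus median to -0.09, and 42.2% of genes past 2-fold were higher. Of the counts, genes lower at day 12 went to 2680 with male libraries alone, and genes at least 2-fold higher to 1714 with a floor of 100. The 11 genes whose level change differed between crosses became 36 with counts divided by 3, 25 with a floor of 100, 7 with library size only, and 0 to 514 on leaving out 1 library.

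With counts divided by 3, the share counts were 100 more and 121 less maternal in BJ1, 208 and 113 in JB6, 51 and 2 by both crosses, 241 toward B6 and 343 toward JF1 between crosses, 8 the same way and 129 opposite ways. With limma on log2 ratios they were 140 and 204 in BJ1, 239 and 100 in JB6, 344 toward B6 and 524 toward JF1, 8 the same way and 152 opposite ways. With no floor, 24 genes were less maternal by both crosses. On leaving out 1 library, the counts ran over 209 to 374 and 228 to 423 in BJ1, lowest without BJ1 day 12 replicate 2, and over 310 to 517 and 149 to 305 in JB6, lowest without JB6 day 12 replicate 2. Genes less maternal by both ran over 7 to 15, and those opposite ways over 236 to 311, both lowest without BJ1 day 12 replicate 2. The cause was not tested.

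The replicate numbers do not pair the libraries: deviations of same-numbered libraries correlated between -0.164 and 0.194. With the number as a replicate block, the level difference between crosses passed in 7 genes. Over all alternatives together, counting each gene once per setting, 1862 level values of single genes were unchanged and 6 lost their call. For shares, 696 were unchanged and 57 lost it in BJ1, 710 and 48 in JB6, and 666 and 35 by both crosses. For differences between crosses, the numbers were 43 and 24 in level, and 673 and 25 in share. Some share values became stronger: 2 in BJ1, 1 in JB6, 11 by both crosses and 14 in the difference. At the real depths and with an assumed spread, the simulated BJ1 share test called 29 of 100 genes changed 2-fold in ratio. Depth was not varied, so its part in this was not tested. Sex, stage and treatment cannot be told apart beyond the male-only fit.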
